A study of Mus musculus with 4 samples.

Results

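The E2A binding sites called around 5 mouse genes, Cd4, Cd8a, Cd8b1, Cd1d1 and Cd1d2, were examined in the peak lists of L-DKO double-positive (DP) and invariant natural killer T (iNKT) thymocytes. A peak was assigned to a gene if its midpoint lay in the gene body or within 50 kb of it in the mm9 assembly. By this rule 35 of the 17532 DP peaks and 1 of the 1516 iNKT peaks belonged to the 5 genes, out of 22350 protein-coding genes in the annotation. The L-DKO mice were Id2 f/f Id3 f/f LckCre+, so that Cre under the Lck promoter, active in T cell precursors, deletes both floxed genes in the T lineage. They were 3 to 5 weeks old, of C57BL/6 or mixed C57BL/6 and 129 background, and every sample pooled thymocytes of 3 to 4 of them. DP cells were sorted as CD1dTet- CD4+ CD8+ and iNKT cells by binding of the CD1d tetramer together with TCRβ. Both came from the same genotype, no wild-type ChIP-Seq library was analysed here, and with 1 E2A library and 1 input per cell type no value has a replicate error and no test between cell types was made. The lists give neither read depth nor expression, and RNA from these cells was not used here, so the deletion of Id2 and Id3 and the CD4 and CD8 levels used to gate the DP cells were not checked.

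E2A is an E protein, a basic helix-loop-helix factor that binds E-boxes of the form CANNTG, and Id proteins such as Id2 and Id3 bind E proteins and keep them off DNA. CD4 and CD8 are the coreceptors that hold Lck and read MHC class II and class I. DP thymocytes carry both, whereas mouse iNKT cells carry CD4 or neither. CD1d, displayed on DP thymocytes, presents lipid to the iNKT cell receptor. Expression of Cd4 depends on enhancers upstream of the gene and on a silencer in its first intron that binds Runx factors. Cd8a and Cd8b1 share a set of stage-specific enhancers that lie mostly between and around the genes, among them E8I. A tetramer of CD1d labels cells by the specificity of their receptor, so the iNKT gate says nothing about the Cd1d genes themselves.

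The sequences on which the results turn come from the mm9 reference and run 5′ to 3′ on the plus strand. Capitals mark the E-box cores CAGGTG, which reads as CACCTG on the other strand, and CAGCTG, except in the stretch of Cd4 intron 1, where they mark the Runx core ACCACA, which reads as TGTGGT on the other strand. The first is the E-box pair inside the only one of the 35 DP peaks that an iNKT peak overlapped.
Cd4 upstream, chr6:124850495-124850620: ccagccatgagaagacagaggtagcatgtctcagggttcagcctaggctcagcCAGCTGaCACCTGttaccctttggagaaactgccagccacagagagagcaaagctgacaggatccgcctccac
The next holds most of the Runx cores of the DP peak that lies wholly in the silencer intron.
Cd4 intron 1, chr6:124836010-124836308: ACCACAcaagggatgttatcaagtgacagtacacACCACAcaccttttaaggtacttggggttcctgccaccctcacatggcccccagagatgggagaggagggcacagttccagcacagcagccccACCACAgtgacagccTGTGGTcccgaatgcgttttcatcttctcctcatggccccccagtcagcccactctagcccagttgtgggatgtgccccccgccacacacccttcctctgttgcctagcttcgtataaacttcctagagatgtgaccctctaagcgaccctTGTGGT
The short second intron of Cd4 lay under the strongest DP peak within the gene.
Cd4 intron 2, chr6:124829493-124829620: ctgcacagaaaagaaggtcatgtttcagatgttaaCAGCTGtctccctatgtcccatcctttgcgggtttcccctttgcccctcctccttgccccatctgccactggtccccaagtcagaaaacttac
At the Cd8 genes, sequences are shown for the strongest upstream peak, for the peak at the approximate position of E8I and for the peak over the Cd8a start.
Cd8b1 upstream, chr6:71252489-71252614: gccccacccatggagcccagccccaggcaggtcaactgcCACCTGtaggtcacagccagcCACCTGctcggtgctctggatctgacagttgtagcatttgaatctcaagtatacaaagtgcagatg
Cd8a upstream, E8I side, chr6:71307756-71307881: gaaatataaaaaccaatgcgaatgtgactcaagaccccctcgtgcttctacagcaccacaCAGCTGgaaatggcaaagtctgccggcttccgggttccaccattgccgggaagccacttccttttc
Cd8a start region, chr6:71321207-71321332: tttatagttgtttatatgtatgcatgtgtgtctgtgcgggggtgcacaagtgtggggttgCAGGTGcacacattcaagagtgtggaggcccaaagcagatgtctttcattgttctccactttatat
The last is part of a repeat array between the Cd1d genes.
Cd1d array, chr3:86797157-86797282: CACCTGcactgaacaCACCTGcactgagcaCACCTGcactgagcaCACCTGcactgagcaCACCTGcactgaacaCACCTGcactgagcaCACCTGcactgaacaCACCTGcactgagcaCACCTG

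MACS gives each peak a p-value and reports its negative log10, multiplied by 10, as the score. No score in either list was under 50, which stands for a p-value of 1e-05. Scores were used to rank peaks within a list and were not compared as amounts between lists, because neither depth is known. Many of the strongest DP peaks share 1 ceiling value. A score of 3100 was given to 258 DP peaks and 26 were above it, so all peaks at 3100 hold rank 27.

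All 5 genes had at least 1 DP peak, where 54.0% of all protein-coding genes did. An iNKT peak was present at 1 of the 5, Cd4, against 10.4% of all protein-coding genes. The 35 DP peaks fell into 3 regions, with 8 around Cd4, 24 around the neighbouring Cd8 genes and 3 around the neighbouring Cd1d genes. Their scores ran from 55.1 to 3100 with a median of 304, where the median of the whole DP list was 141. A score of at least 1000 was reached by 13 of them, 4 at Cd4, 9 at Cd8 and none at Cd1d, where 9.51% of all DP peaks reached it, and 10 were among the top 5% of the list. The start sites of Cd4, Cd8b1, Cd8a and Cd1d1 lay inside a DP peak, which is 4 of 5 genes, against 9.36% of all protein-coding genes. The nearest protein-coding start site was that of a member gene for 25 of the 35 peaks. For the other 10 it belonged to a neighbour, so these peaks could equally be listed under that gene.

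Cd4 (ENSMUSG00000023274.7) encodes the MHC class II coreceptor and occupies 124814710 to 124838239 of chromosome 6 on the minus strand. Its window of 124 kb holds the start sites of 10 protein-coding genes, Cd4 included. The 8 DP peaks there had scores of 1852, 2406, 437, 216, 316, 3100, 1119.5 and 79.9, in order from the 3′ side of the gene to its far upstream side. Their median was 778. More DP peaks were found at 690 genes, or 3.09% of all. The map of the Cd4 region shows that the peaks formed a cluster upstream, a series through the first part of the gene and a strong peak at its 3′ end.

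The upstream cluster held the highest score and the shared peak. The peak with that score, from 124849075 to 124852397, scored 3100, was 3323 bp wide and held rank 177 by width. It was centred 12.5 kb upstream of the Cd4 start site and covered the position about 13 kb upstream at which the Cd4 proximal enhancer is placed in textbooks. Its exact borders are not given in the sources used here, so only the distance was used. Lag3, which lies next to Cd4 and encodes an inhibitory receptor for MHC class II, has its start site at 11 kb from the same midpoint, closer than that of Cd4. A flanking peak from 124853124 to 124854483 scored 1119.5 and overlapped the 3′ end of Lag3. The flanking peak on the Cd4 side, from 124847734 to 124849030, scored 316.

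The only iNKT peak in any of the windows lay inside the strongest Cd4 peak. It spanned 124849788 to 124851404 at 12.4 kb upstream of Cd4. With a score of 159 it held rank 288 in the iNKT list, which is the top 19%. All of its 1617 bp lay within the DP peak, of which they made up 48.7%. The DP peak contained 4 CAGGTG and 3 CAGCTG sites, and the iNKT peak contained 3 and 2 of these. The pair printed above for the Cd4 upstream region, CAGCTG starting at 124850548 and CACCTG starting at 124850555, lies in both peaks, 1 base apart.

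In intron 1 of Cd4, which holds the silencer, DP peaks were called at both ends and within it. The borders of the silencer are not given in the sources used here, so no peak was placed on the silencer itself. Intron 1 of Cd4 extends over 8.39 kb, from 124829712 to 124838097. The peak from 124834781 to 124836745 lay wholly inside it, 2.48 kb downstream of the start site, with a score of 437 and a rank of 3784. It held no CAGGTG and no CAGCTG but 8 sites of the general form CANNTG, and 6 ACCACA cores. Of these 6 cores, 5 lay in the 299 bp printed above, between 1.93 and 2.23 kb downstream of the start site. At least 6 Runx cores were found in 175 of all DP peaks, or 0.998%. The peak was 1965 bp wide, and a wider peak has more room for cores. Peaks with neither CAGGTG nor CAGCTG were 8.09% of the DP list and 2 of the 35 here. A core is a match of letters and not a measured Runx site.

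The start site of Cd4 itself was covered by a weaker peak, from 124837669 to 124839285, with a score of 216 and a rank of 6510. The strongest peak within the gene ran from 124829105 to 124830338 with a score of 2406, which ranked 476. Its midpoint lay at the far end of intron 1, 8.52 kb downstream of the start, and it also covered exons 2 and 3 and all of intron 2. It held 2 CAGCTG sites, of which 1 is the site in the printed intron 2, and its single CAGGTG was exonic. At the opposite end of the gene, the peak from 124812298 to 124814853, with a score of 1852, spanned the last bases of Cd4 and the start site of Gpr162, an orphan receptor gene, 0.36 kb from its midpoint. The peak with the lowest score, 79.9, covered the start of Mlf2. Just beyond the 50 kb limit lay a pair of DP peaks, 55.9 and 58.5 kb from Cd4, with scores of 134 and 105.

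**Figure D1:**
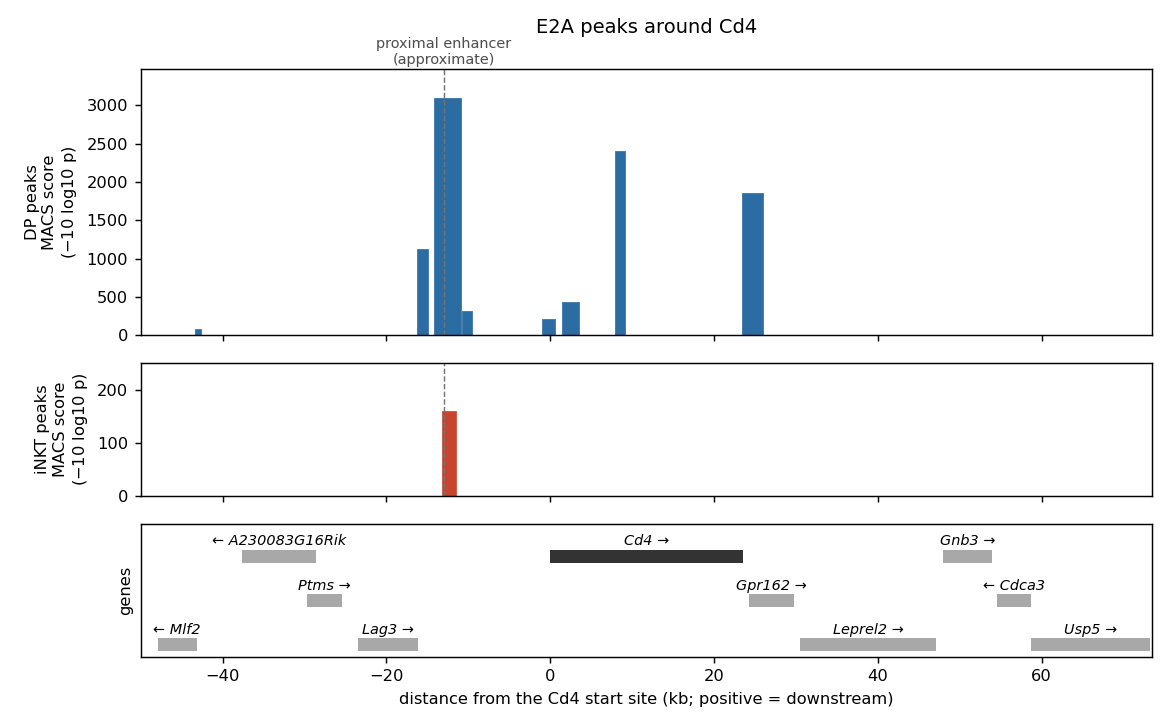
E2A peaks around Cd4, with distance from the Cd4 start site in kb on the x axis and the MACS score on the y axis, DP peaks in the upper panel and the iNKT peak, on its own score axis, in the middle. Bars have the width of the peak, arrows give gene direction and the dashed line is the approximate place of the proximal enhancer; the iNKT peak of score 159 sits inside the DP peak of score 3100.

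The Cd8 genes had the densest E2A binding of all genes in the DP list, by the share of the window covered, and no peak in the iNKT list. Cd8b1 (ENSMUSG00000053044.7), which encodes the β chain of CD8, occupies 71272830 to 71287471 of chromosome 6 on the plus strand. Cd8a (ENSMUSG00000053977.7), which encodes the α chain, follows on the same strand from 71323421 to 71329165. Cd8b1 had 19 DP peaks and Cd8a had 18, and 13 of these were the same peaks, since the windows overlap. More peaks were found at 20 genes for Cd8b1 and at 36 genes for Cd8a, so by number alone the genes were near the top of the distribution and not at it, as the plot of DP peaks per gene shows.

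By length covered they were at the top. DP peaks covered 37.0% of the Cd8b1 window and 36.8% of the Cd8a window, the top ranks 1 and 2 among 22350 protein-coding genes. The gene in the next place, 4933422H20Rik, had 27.3%, the median gene had 0.505%, and Cd4 had 11.4% and ranked 264. Over the whole genome DP peaks covered 0.754%. This measure was chosen after its values were seen. With windows of 25 or 100 kb, or with only peaks of a score of at least 100 or 200, Cd8a ranked 1 or 2 and Cd8b1 ranked between 1 and 3. The Cd8 peaks also lay close together. Of the 23 gaps between neighbouring Cd8 peaks, 8 were under 200 bp and the median gap was 1337 bp, against 528 of 17512 gaps under 200 bp and a median of 19220 bp in the whole DP list.

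The widest Cd8 peak ran across the Cd8a start site. It extended from 71318180 to 71327173, from 5.24 kb upstream to 3.75 kb downstream of the start, and had a score of 3100. At 8994 bp it held rank 2 by width among the 17532 DP peaks, whose median width was 984 bp. It contained 5 CAGGTG, 4 CAGCTG and 7 ACCACA cores. Cd8a had no DP peak with its midpoint inside the gene, since the midpoint of this one lay 0.745 kb upstream.

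Between the Cd8b1 end and the Cd8a start, a stretch of 35.9 kb that holds known Cd8 enhancers, there were 7 DP peaks including the wide one. Of these enhancers only E8I was placed, so the peaks were not matched to the others. The peak from 71306945 to 71308479 had its midpoint 15.7 kb upstream of Cd8a and covered the position about 16 kb upstream at which E8I, the enhancer active in mature CD8 T cells, is placed. Its score of 387 ranked 4187, and it contained 2 CAGCTG sites, 1 of them in the sequence printed above, and no CAGGTG. The neighbouring peak from 71301738 to 71304533, 20.3 kb upstream of Cd8a, was stronger, with a score of 1698, 3 CAGGTG and 6 CAGCTG sites. On the other side of E8I, the peak from 71309809 to 71311761 scored 502. The scores of all 7 peaks of this stretch ran from 62.3 to 3100, so the peak at the approximate E8I position was neither the weakest nor the strongest.

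Cd8b1 had DP peaks over its start, its body and its end. The peak over its start site, from 71271588 to 71273930, scored 1321 and also covered the start of Smyd1, a muscle methyltransferase gene transcribed in the opposite direction from a start 0.603 kb away. Inside the gene 6 DP peaks had their midpoints. The strongest of them, from 71281993 to 71285037, lay in intron 4 with a score of 1870.1, and the next, from 71286375 to 71288402, lay over exon 6, the last exon, with a score of 1648. Another strong peak, from 71288519 to 71292096, began just past the end of the gene and had a score of 1836. The other peaks inside Cd8b1 were weak, with scores from 56.8 to 138.

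Strong peaks extended to both sides of the gene pair. Upstream of Cd8b1 there were 6 DP peaks. The strongest, from 71251218 to 71253893, scored 3100 and held 8 CAGGTG sites, including the pair printed above, in which the cores start at 71252528 and 71252549. It lay 20.3 kb upstream of Cd8b1, within Smyd1, and the nearest start was that of Gm1070, 8.80 kb away. The peak from 71256741 to 71258685 scored 1320.5. Past the Cd8a end there were 5 DP peaks, of which the strongest, from 71345412 to 71347467, lay 23.0 kb downstream of the Cd8a start inside Rmnd5a, a gene for a subunit of a ubiquitin ligase, and had a score of 1749.8. The farthest, 36.5 kb downstream of the Cd8a start, had a score of 258 and was nearest to the Rmnd5a start.

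**Figure D2:**
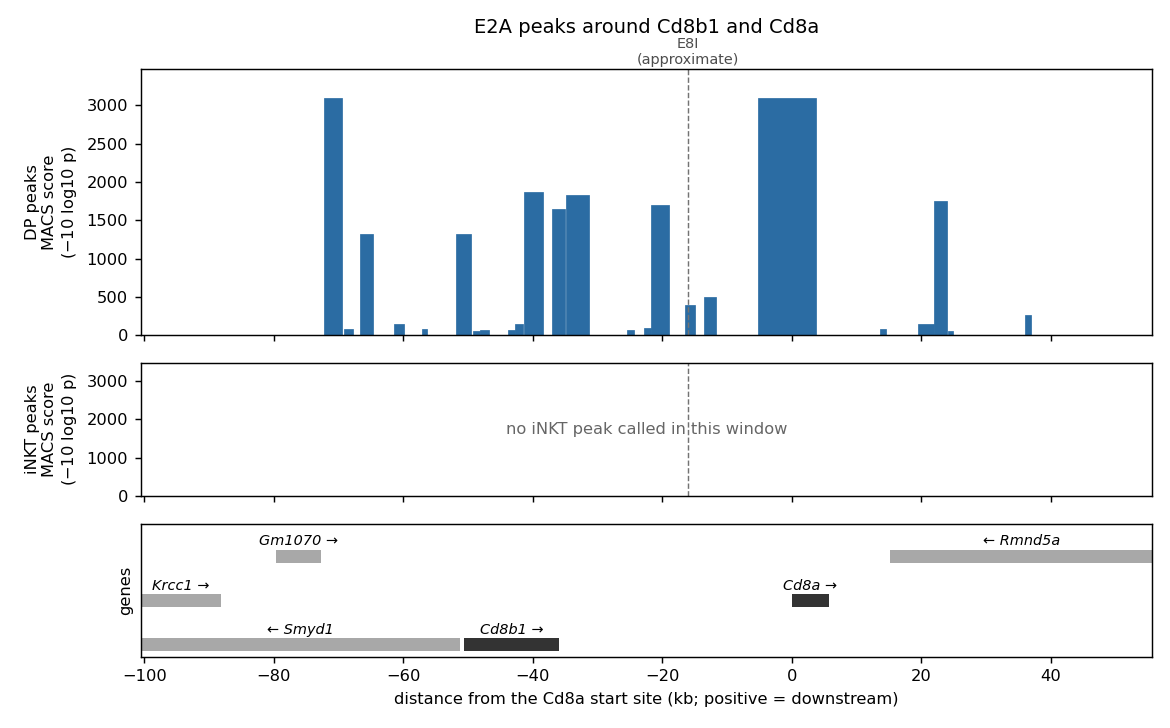
E2A peaks around Cd8b1 and Cd8a, with distance from the Cd8a start site in kb on the x axis and the MACS score on the y axis, DP in the upper and iNKT in the middle panel. Bars have the width of the peak, arrows give gene direction and the dashed line is the approximate place of E8I; 24 DP peaks spread over both genes, the widest bar crosses the Cd8a start, and the iNKT panel is empty.

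None of the 24 Cd8 peaks was overlapped by an iNKT peak. The nearest iNKT peak, of score 224, lay 498 kb from Cd8b1 and 548 kb from Cd8a, close to Eif2ak3. A count of 0 among 24 allows a share of up to 13.8% (95% Wilson limit, for counting error only), and 5.99% of all DP peaks were overlapped by an iNKT peak, a share that lies below this limit. The share depended on peak strength. Of all DP peaks with a score of at least 1000, 31.9% were overlapped by an iNKT peak, and the limit from 0 of the 9 Cd8 peaks of that strength was 29.9%. The 9 peaks are neighbours in 1 region and not independent draws, so this limit is a description. Over all members, 1 of 35 DP peaks was overlapped, or 2.86% (interval 0.506 to 14.5), and 1 of 13 with a score of at least 1000, or 7.69% (1.37 to 33.3). Of the 3 member peaks at 3100, the Cd4 peak was overlapped and both Cd8 peaks were not, whereas over the list 152 of 258 peaks at 3100 were, or 58.9%. The iNKT list was shorter, and its depth is unknown, so lower binding in iNKT cells and lower detection there cannot be told apart.

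Cd1d1 and Cd1d2 had fewer DP peaks than the coreceptor genes, and none with a score of at least 1000. Cd1d1 (ENSMUSG00000028076.6), which encodes the CD1d molecule that presents lipid to iNKT cells, occupies 86799756 to 86803363 of chromosome 3 on the minus strand. Cd1d2 (ENSMUSG00000041750.7), its close copy, faces it from the plus strand, at 86790508 to 86793455, so that the 3′ ends of the genes point at each other. The same 3 DP peaks fell into both windows, and 3924 genes, or 17.6%, had more. They covered 3.34% of the Cd1d1 window and 3.36% of the Cd1d2 window. No other protein-coding gene starts in these windows, so the nearest start was a Cd1d gene for all 3 peaks.

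The peak over the Cd1d1 start site, from 86802382 to 86803431, scored 58.4, close to the lowest of the list, and ranked 15748. It contained no CAGGTG and 1 CAGCTG, and 67.5% of its words of 31 bases occur once in the genome. No peak covered the Cd1d2 start. The strongest of the 3, from 86764609 to 86765884, lay 25.3 kb upstream of Cd1d2 with a score of 304 and a rank of 5063. No iNKT peak was called near either gene, and the closest one, of score 78.3, was 1930 kb from Cd1d1, near Msto1.

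The third Cd1d peak lay over a repeat of E-boxes. It ran from 86796662 to 86797792 between the 3′ ends of the genes, with a score of 275 and a rank of 5485. It held 19 CAGGTG cores, all read as CACCTG on the plus strand, and every one of the 18 steps between them was 15 bp. The array spanned 276 bp, from 86797037 to 86797312, at 2.44 kb from the end of Cd1d1 and 3.58 kb from the end of Cd1d2, and the printed stretch is part of it. As many CAGGTG cores were found in 44 of all DP peaks, or 0.251%. Array included, the Cd1d peaks had 5.79 sites per kb of peak, against 0.993 at Cd4, 1.03 at Cd8 and 1.62 in the whole DP list. Outside the array they held 1 site, or 0.314 per kb. Only 23.6% of the words of 31 bases in the array occur once in the genome and their median copy number is 3. The part of copy number in this peak was not tested.

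**Figure D3:**
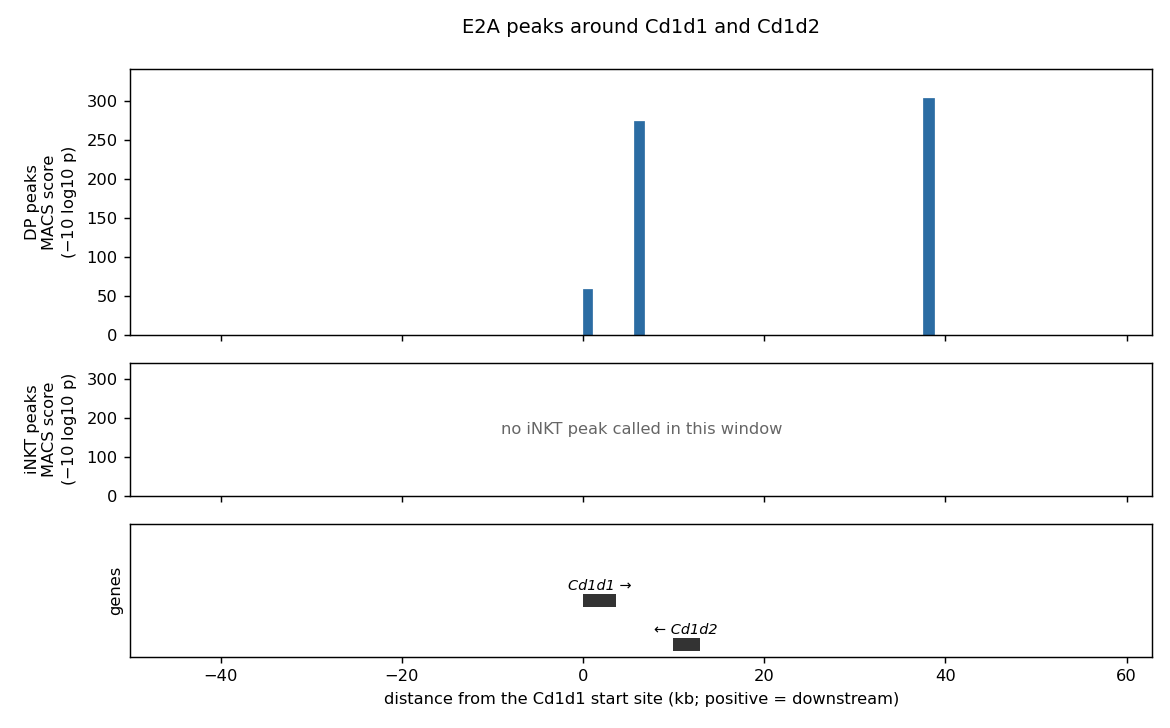
E2A peaks around Cd1d1 and Cd1d2, with distance from the Cd1d1 start site in kb on the x axis and the MACS score on the y axis, DP in the upper and iNKT in the middle panel. Bars have the width of the peak and arrows give gene direction; the 3 DP peaks have scores of 58.4, 275 and 304, all below 1000, and the iNKT panel is empty.

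Sequence shared between the Cd1d copies bears on what could be called there, because reads without a single best position were not kept. Words of 31 bases that occur once in the mm9 genome made up 62.7% of Cd1d1 and 56.3% of Cd1d2, against 95.5% of Cd4, 89.1% of Cd8a and 92.4% of Cd8b1. With words of 50 bases the shares were 72.0% and 66.1% for the Cd1d genes, against 98.7%, 94.1% and 95.1%. Of the words of 31 bases of Cd1d1, 35.6% were also found in Cd1d2, and 43.7% of those of Cd1d2 were found in Cd1d1. In the 1 kb upstream of the start site, the share of words of 31 bases that occurs once was 98.2% for Cd1d1 but 34.1% for Cd1d2. Longer words were not counted in this stretch. By this measure most of the sequence just upstream of Cd1d2 is not unique. A lack of binding at its start cannot be told apart from a lack of uniquely placed reads. The coreceptor genes were not limited in this way, with 100% at Cd4 and Cd8a and 92.9% at Cd8b1.

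**Figure D4:**
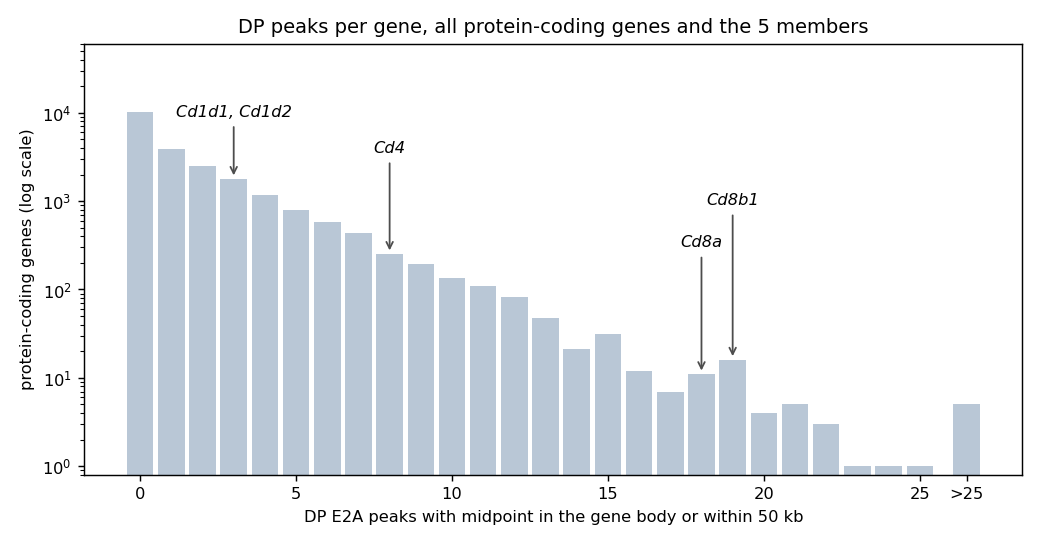
Number of protein-coding genes (y axis, log scale) by their number of DP E2A peaks with a midpoint in the gene body or within 50 kb (x axis; the last bar pools all genes above 25). Arrows mark the 5 genes: Cd1d1 and Cd1d2 with 3 peaks, Cd4 with 8, Cd8a with 18 and Cd8b1 with 19, where the whole range was 0 to 170.

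The cores of several factors were searched in the 35 peaks and set beside their share in the whole DP list. CAGGTG, an E-box typical of E2A, searched on both strands, was present somewhere in 29 of the 35 peaks, or 82.9%, and in 79.0% of all DP peaks. In the 200 bp at the midpoint it was present in 7 of 35, or 20% (interval 10.0 to 35.9), against 43.9% of all DP peaks. The 35 peaks are neighbours in 3 regions and not independent draws, so the interval is a description and not a test. The members' peaks were wide, with a median of 1419 bp. Of the 18 at least that wide, 16 held the core somewhere and 4 at the midpoint, where the shares among all 3588 DP peaks at least that wide were 93.2% and 33.3%, a comparison added after seeing the data. Summits are not part of the lists, so the midpoint took their place. At the midpoint, the other cores gave 6 of 35 for CAGCTG against 29.0% of all DP peaks, and 24 of 35 for CANNTG, which includes both E-boxes, against 83.6%. The Runx core ACCACA gave 4 of 35 against 23.8%, the Gata core TTATCT 1 of 35 against 8.89% and the Tcf/Lef core TCAAAG 4 of 35 against 17.4%. Over the whole peak, CAGCTG was found in 23 of 35 against 63.4% of all DP peaks, ACCACA in 26 against 63.5%, TTATCT in 21 against 40.1% and TCAAAG in 22 against 55.6%. For these other cores the members were not compared with peaks of similar width, and no difference was tested.

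**Figure D5:**
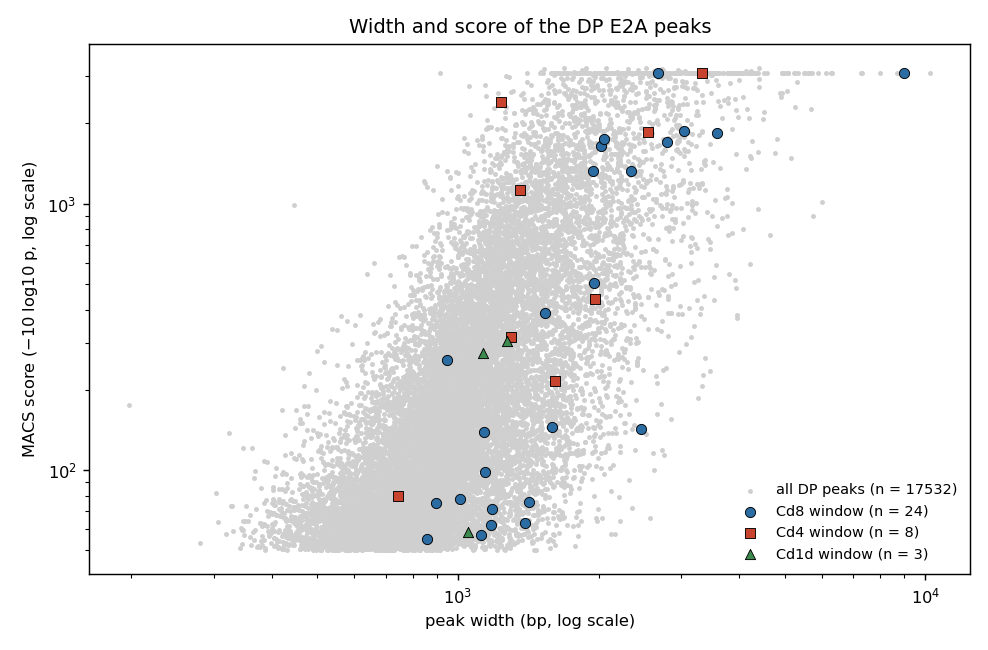
Width in bp (x axis, log scale) and MACS score (y axis, log scale) of the DP E2A peaks, 1 point per peak, with all 17532 peaks in gray. The 24 Cd8 peaks (circles) range from a score of 55.1 and the 8 Cd4 peaks (squares) from 79.9, both up to the ceiling at 3100. The Cd8a start peak of 8994 bp lies at the far right, and the 3 Cd1d peaks (triangles) lie between scores of 58.4 and 304.

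The genes that work with the members were also looked up. Of 11 genes for CD1d presentation and lipid loading, 8 had a DP peak and 2 an iNKT peak, where 54.0% and 10.4% of all protein-coding genes did. The median of this list was 1 DP peak, as it was over all protein-coding genes. Psap, the precursor of the saposins that load lipid onto CD1d, had the highest peak of this list with a score of 3016. Ctsl, the cathepsin L protease, had a peak of 2538 and an iNKT peak of 208. B2m, the light chain of CD1d and of MHC class I, reached 819, and the lipid carrier Npc2 reached 558. The highest score at the Cd1d genes themselves was 304. No DP peak was found at Mttp, Ap3b1 or Pdia3.

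All 4 genes for coreceptor signalling had DP peaks, with a median of 9.5, and 1 had an iNKT peak, beside 54.0%, 1 and 10.4% over all genes. A longer gene has a larger window, and these numbers were not adjusted for gene length. Lck, the kinase held by CD4 and CD8, had 7 DP peaks and was the gene with iNKT peaks, 2 in number. Its highest DP score was 1757, at 36.5 kb upstream of its start site. Ptprc, which encodes the phosphatase CD45, had a highest score of 2183, at 16.8 kb upstream. Csk, a kinase that restrains Lck, had 10 DP peaks with a highest score of 543, at 16.3 kb downstream of its start. Fyn, a relative of Lck, had 12 with a highest score of 399, at 146 kb downstream.

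All 14 genes for factors known to act on Cd4 or Cd8 had DP peaks, with a median of 6, and 4 had iNKT peaks, where the same values over all genes were 54.0%, 1 and 10.4%. Gene length was not taken into account here either. The highest DP scores were 3202 at Smarca4, which encodes the Brg1 remodeling ATPase, 3100 at Myb, 2939 at Bcl11b and 2345 at Ikzf1. In the same order, these peaks lay 36.6, 68.0, 73.9 and 41.1 kb downstream of the gene's start site. Myb also had an iNKT peak of score 399 and Ikzf1 had 3 iNKT peaks. A further pair was named for its role after the values were seen. Zbtb7b, which encodes ThPOK, the factor of the CD4 lineage that represses Cd8 genes, had 5 DP peaks and an iNKT peak of 219.6. Its highest DP peak, of score 823, lay 1.62 kb upstream of its start site. Runx3, which acts at the Cd4 silencer in CD8 cells, had 10 DP peaks and no iNKT peak. Its highest DP score was 914, at 85.7 kb downstream of its start site. The lists were chosen with earlier results of these data known, so the counts are descriptions.

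Genes with the same numbers of peaks as the members were common for the Cd1d genes and rare for the Cd8 genes. With 8 DP peaks and 1 iNKT peak, 82 other genes matched Cd4, and Aars2 and Arid3b, also with a highest DP score of 3100, were nearest to it. With 18 DP peaks and no iNKT peak, 3 genes matched Cd8a, the nearest being Cmah with 3100 and Itpr2 with 2598. Cd8b1 was matched by 4 genes, the nearest being Smyd1, whose window overlaps that of Cd8b1, and Sla with 2536. The Cd1d genes, with 3 and 0, were matched by 1525 genes, of which Cdk11b and Gm10563 were nearest with a highest score of 304.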

How the data were processed

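E2A ChIP-Seq peaks of sorted L-DKO DP and iNKT thymocytes were analysed, with 1 E2A library per cell type. Per the study's methods and the submitters' processing notes, the authors crosslinked the cells with EGS and formaldehyde, precipitated chromatin with an anti-E2A antibody, used Bowtie 1.1.2 to place reads on mm9, discarded those with more than 1 best place, and ran MACS 1.4.2 with its defaults as the peak caller. The deposited files give each peak's position and its MACS score, which is 10 times the negative log10 of a p-value, and by their names the input of the same cell type served as control. Read counts and the inputs themselves were not analysed here, so depth is unknown and the precision it gives cannot be stated.

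Starts were converted to 1-based positions. Genes came from GENCODE release M1 on NCBIM37, the same assembly as mm9, from which sequences and copy numbers of words of 31 bases were also read. A RefSeq promoter table on another build was not used. A peak was placed by its midpoint, overlaps needed at least 1 bp, and ranks count higher scores in the same list. Covered length counted every base of a peak inside a window. Both strands were searched for motif cores, in the 200 bp at the midpoint and over the whole peak. Intervals are 95% Wilson intervals and cover counting error only, and no test was made. They treat peaks as independent, which neighbouring peaks of a region are not. Python 3.11.15, numpy 2.4.6, scipy 1.17.1, numba 0.67.0 and matplotlib 3.10.9 were used, and the overlap, placing, motif and copy number steps were tested on simulated data, where 13 of 13 checks were recovered.

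The text names the 5 genes, the protein-coding genes whose start is nearest to one of their peaks, up to 4 genes of each partner list with the highest DP score, and up to 2 genes per member with the same numbers of peaks and the nearest highest score. Genes named beyond this rule were chosen after their values were seen. The members and lists were chosen with earlier results of these data known. Other windows, score minimums, overlaps, motif windows and word lengths were tried as alternatives.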

Additional observations from a re-analysis of the deposited data

How the results depend on the processing

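Alternatives gave 45 values of 16 results, of which 20 stayed close to the reported value and 25 did not. Counts, ranks and shares of words were held to 1.5 times the reported value, and shares of genes or peaks to its counting interval. No paired analysis was possible because there was 1 E2A library per cell type, and no replicate could be left out.

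With the gene body only, 9 DP peaks and 0 iNKT peaks remained at the 5 genes, and with a score of at least 200 there were 21 and 0. These numbers fall by construction. The share of protein-coding genes with a DP peak became 43.8% at 25 kb, 65.1% at 100 kb, 20.4% in the gene body, 42.2% at a score of at least 100 and 31.7% at 200, and with an iNKT peak 6.82%, 16.9%, 3.00%, 4.47% and 1.75%. With an overlap of 50% of each peak, 0 DP peaks of the members were overlapped, since the iNKT peak at Cd4 covers 48.7% of the wider DP peak. CAGGTG was found in 29 of the members' DP peaks over the whole peak and in 19 in 500 bp at the midpoint, by construction more than in 200 bp. The share of DP peaks with CAGGTG at the midpoint was 33.3% among wide peaks. Among all genes by covered length, Cd4 ranked 91 at 25 kb, 678 at 100 kb and 94 at a score of at least 200. Cd8a ranked 1 at 100 kb and 1 at a score of at least 100, and Cd8b1 ranked 3 and 2. The cause of the changes in rank was not tested. The comparison of wide peaks and the ranks by covered length were chosen after seeing the data.

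Without depth or replicates, a peak missing from the iNKT list is not shown to be absent from iNKT cells, and the scores of the lists share no scale.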
